A study of Mus musculus with 4 samples.

Results

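Slc1a3 encodes GLAST (EAAT1), one of the high-affinity glutamate transporters of astrocytes, and its footprints were counted in ribosomes captured from astrocytes and from neurons of the mouse brain. The members were set by a list of 3 Ensembl transcript IDs, for Slc1a2, Slc1a3 and Glul, each looked up with its region letter removed. Of these 3 IDs, 1 had lines, ENSMUST00000005493 (Slc1a3). The IDs given for Slc1a2 (ENSMUST00000080210) and Glul (ENSMUST00000086199) had no line, so both genes are left out and not analysed here. Whether these genes were counted under other transcript IDs is not known. The missing lines therefore do not show that the genes had no footprints. Slc1a3 is 1 of 23175 transcripts with a count, and its lines cover 3 of the 60155 transcript regions of the series. The gene name comes with the listed ID, as the count tables hold IDs without names.

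Glutamate released at synapses is cleared mainly by astrocytes, whose plasma membrane carries the sodium-coupled transporters GLAST (Slc1a3) and GLT-1 (Slc1a2). Inside the astrocyte, glutamine synthetase (Glul) turns glutamate into glutamine, which is passed back to neurons for renewed transmitter synthesis. GLAST is the main glutamate transporter of Bergmann glia in the cerebellum and is also made by radial glia and Müller glia.

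All animals were C57BL/6J mice at postnatal day 21 that carried the ribosomal protein RpL10a fused to eGFP, under Aldh1l1 for the astrocyte group (Aldh1l1::eGFP-RpL10a) and under Snap25 for the neuron group (Snap25::eGFP-RpL10a). Each of the 4 libraries, 2 per cell type, was prepared from 2 pooled whole brains, so neither group is limited to a brain region or a subtype. Tagged ribosomes were pulled down with antibodies to GFP and treated with RNase I on the beads, and the RNA fragments they protected were sequenced. The p-values set the difference between the groups against the spread between these pools, which the fits estimate jointly for both cell types.

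The libraries held 7210269 to 12833187 counts. The counts of 2 libraries of a group differed by more than sampling noise, and the neuron libraries stood further apart: chi-square per degree of freedom was 22.1 between them, against 2.11 between the astrocyte libraries. As the IDs carry no gene names, the other defining markers of astrocytes, neurons and further cell types, and the other genes of the glutamate and glutamine cycle, were not analysed here.

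Slc1a3 carried 5.29-fold more footprints in astrocyte than in neuron samples by group means scaled to library totals, and 5.74-fold more in the edgeR fit, which also applies TMM scaling factors. The astrocyte libraries 1 and 2 held 12854 and 13655 counts of the transcript, and the neuron libraries 1 and 2 held 2760 and 3516. Scaled to a common library total (CPM, the count as parts of 1000000), astrocyte 1 reached 1763 and astrocyte 2 reached 1714, whereas neuron 1 reached 382.8 and neuron 2 reached 274.0. Both astrocyte libraries were high, both neuron libraries were low, and the groups did not overlap. Astrocyte samples averaged 1738 ± 34.6 CPM and neuron samples 328.4 ± 76.9 CPM (n = 2 libraries each, ± SD). The gap between the groups was many times the spread within either.

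The log2 fold change, neuron over astrocyte, was -2.52 (SE 0.218, edgeR quasi-likelihood test, adjusted p = 0.0004 over 18819 transcripts). Among those transcripts, 12.9% passed the same test at an adjusted p under 0.05 with more footprints in astrocyte samples and 4.24% with more in neuron samples. With library totals alone in place of TMM factors, these shares were 11.3% and 8.0%, so the surplus of calls toward astrocytes was smaller. The median log2 fold change of the transcripts higher in astrocyte samples, with TMM factors, was -1.43. The change of Slc1a3 was larger than that of most of them: 189 of these 2422 transcripts, 7.80%, had a larger one. The median over all 18819 was 0.03. Both astrocyte libraries lay above both neuron libraries in 25.6% of the transcripts tested. In these bulk captures, fewer captured cells that make Slc1a3 and less Slc1a3 RNA on ribosomes per cell cannot be told apart.

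**Figure D1:**
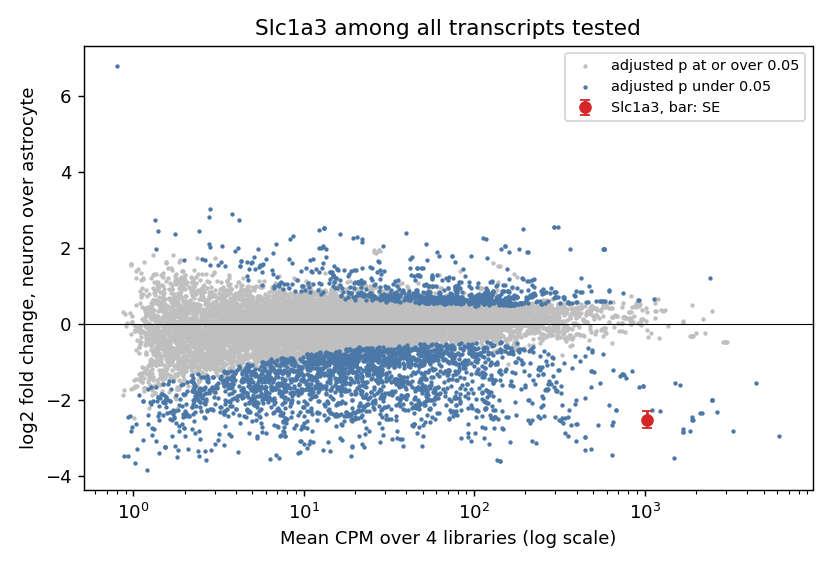
Each point is 1 of the 18819 transcripts tested, with its mean CPM on a log scale on the x axis and its log2 fold change, neuron over astrocyte, on the y axis; blue points passed the test. Slc1a3 (red, with its SE) lies at -2.52, among the abundant transcripts with more footprints in astrocyte samples.

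In each library, the footprints of Slc1a3 were counted deeply enough that counting error was small. The 95% exact Poisson interval, which covers counting error only, ran from 1732 to 1793 CPM in astrocyte 1 and from 1685 to 1743 CPM in astrocyte 2. These intervals overlapped. In neuron 1 it ran from 368.6 to 397.3 CPM and in neuron 2 from 265.0 to 283.2 CPM, so the neuron libraries differed from each other by more than counting error. Slc1a3 took 0.176% and 0.171% of all counts of astrocyte 1 and 2 and 0.0383% and 0.0274% of those of neuron 1 and 2.

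Footprints of this astrocyte transporter were counted in the neuron captures too, at 22.0% of the astrocyte mean in neuron 1 and 15.8% in neuron 2. Over the 2422 transcripts called higher in astrocyte samples, the medians of the same percentages were 44.3% and 37.5%. Slc1a3 was therefore further below its astrocyte level in both neuron libraries than the median of these transcripts, which is another view of its larger fold change. The level in neuron 1 was 1.40 times that in neuron 2. This ratio had a median of 1.17 over the transcripts called higher in astrocyte samples, 70.7% of which were higher in neuron 1, and of 0.973 over all tested. For Slc1a3 the ratio of astrocyte 1 to astrocyte 2 was 1.03. Whether RNA of other cells entered the neuron captures was not tested.

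The choice of neuron library set the size of the difference but not its direction. Without neuron 1 the log2 fold change was -2.80, and without neuron 2 it was -2.28. These correspond to 6.98-fold and 4.84-fold more footprints in astrocyte samples. Without astrocyte 1 or astrocyte 2 it was -2.50 and -2.53. Each of these fits takes the spread of the lone library from the pair that is left.

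The count tables split each transcript into regions lettered a to d, whose meaning is not given in the sources used here. Most footprints of Slc1a3 fell in region b. It held 11710 and 12503 counts in astrocyte 1 and 2, against 2550 and 3257 in neuron 1 and 2. Its share of the transcript averaged 91.3% ± 0.328 for astrocyte libraries and 92.5% ± 0.171 for neuron libraries (n = 2 each, ± SD). Over all transcripts the share was similar, at 91.55% and 91.1% of the counts of astrocyte 1 and 2 and 92.29% and 92.58% of those of neuron 1 and 2. As region b makes up most of the total count, the cell type difference in region b alone had to lie near that of the whole transcript. It was -2.52 on the log2 scale (edgeR adjusted p = 0.000434, SE 0.221).

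Region a was the second largest, with 1135 and 1140 counts in astrocyte 1 and 2, against 206 and 258 in neuron 1 and 2. Astrocyte libraries averaged 149 ± 8.88 CPM in region a and neuron libraries 24.3 ± 5.99 CPM (n = 2 each, ± SD), a fold difference of 6.14 between these CPM means, without TMM factors. On the same scale the fold difference was 5.23 for region b. Whether these differ was tested on the ratio of both regions within each library.

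**Figure D2:**
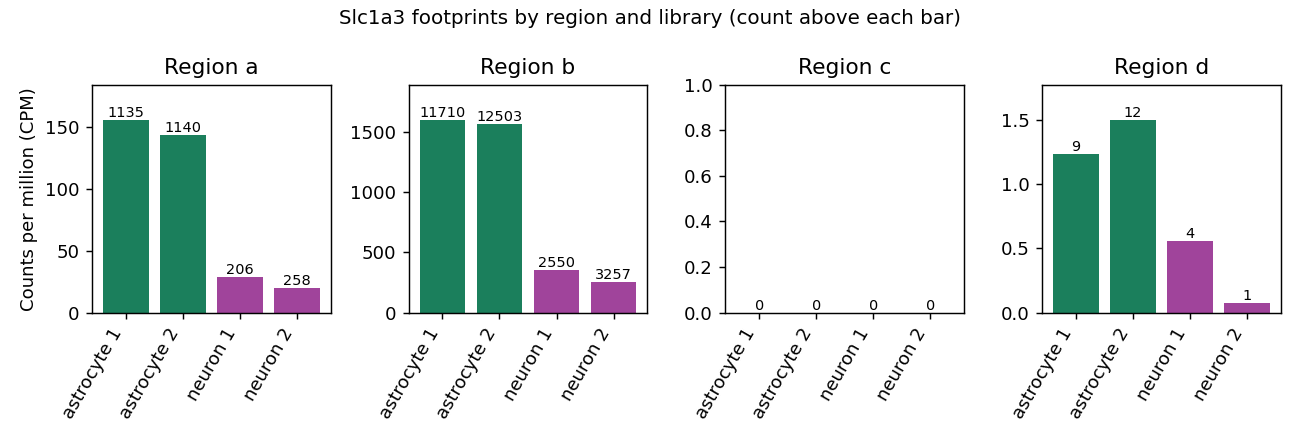
Bars give the CPM of Slc1a3 in each library (green astrocyte, purple neuron), 1 panel per region with its own y axis from 0, and the number above each bar is the count. Regions a and b are high in both astrocyte and low in both neuron libraries, region c has no count, and region d has at most 12.

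Region a amounted to 9.69% of region b in astrocyte 1, 9.12% in astrocyte 2, 8.08% in neuron 1 and 7.92% in neuron 2. Both astrocyte libraries were thus above both neuron libraries, a pattern found in 33.7% of the 9403 transcripts whose ratio could be tested. Astrocyte libraries averaged 9.41% ± 0.406 and neuron libraries 8.0% ± 0.111 (n = 2 each, ± SD). The log2 change of the ratio, neuron over astrocyte, was -0.23 (SE 0.203, edgeR quasi-likelihood test, adjusted p = 0.693) and did not pass the test. In this comparison 0.989% of transcripts passed with a higher ratio in astrocyte samples. The opposite direction had 0.0638%.

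The change of the Slc1a3 ratio was close to that of the typical transcript. The median over the 9403 transcripts was -0.22 on the log2 scale, 70.3% lay below 0, and 48.8% lay lower than Slc1a3. With regions a and b each scaled to their totals over all transcripts, which takes out a shift that all transcripts share, the log2 change of Slc1a3 was 0.0029 (SE 0.169, edgeR adjusted p = 0.998). The small difference was therefore nearly absent with this scaling.

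As a share of all its counts in a library, region a of Slc1a3 held 8.83% in astrocyte 1 (95% Wilson interval 8.35% to 9.33%) and 8.35% in astrocyte 2 (7.90% to 8.82%). It held 7.46% in neuron 1 (6.54% to 8.50%) and 7.34% in neuron 2 (6.52% to 8.25%). These intervals cover counting error only. Those of astrocyte 1 and neuron 2 did not overlap, and the other pairs of an astrocyte and a neuron library did. For comparison, region a held 7.77% and 8.21% of all counts of astrocyte 1 and 2 and 6.99% and 6.75% of those of neuron 1 and 2. The share of Slc1a3 was a little above that of its library in each of the 4. Only in astrocyte 1 did the share of the library lie outside the Wilson interval of Slc1a3.

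Slc1a3 lay in the upper part of the range of region a levels. Summed over the 4 libraries, region a was 9.12% of region b. Over the 7382 transcripts that had 1000 or more counts in region b, the median was 4.24%, the quartiles were 1.57% and 9.35%, and 74.3% of the transcripts lay lower than Slc1a3.

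**Figure D3:**
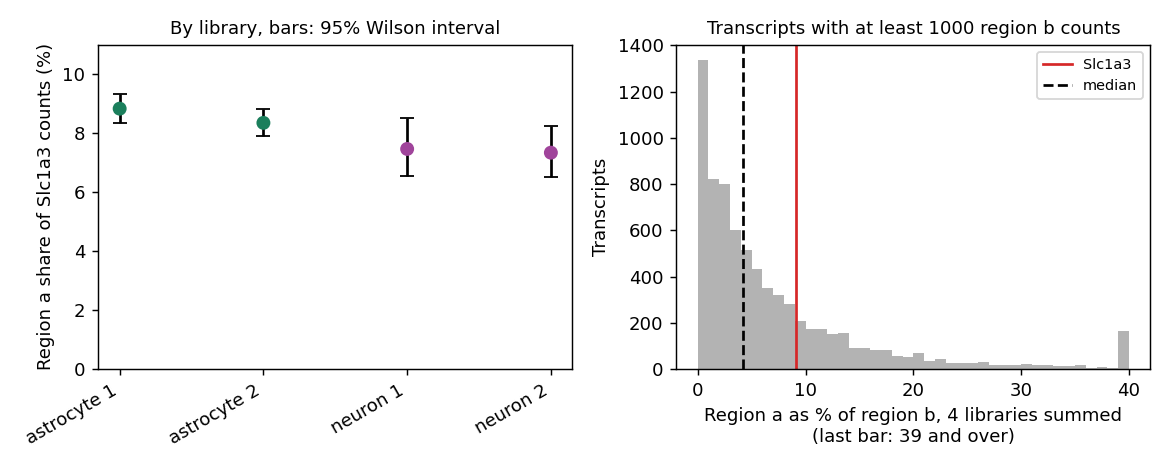
The left panel gives region a as a percentage of the Slc1a3 counts of each library with its 95% Wilson interval, at 8.83% and 8.35% in astrocyte and 7.46% and 7.34% in neuron libraries. The right panel is a histogram of region a as a percentage of region b over 7382 transcripts, with Slc1a3 (red line, 9.12%) to the right of the median (dashed line, 4.24%).

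Region c of Slc1a3 had a count of 0 in every library, which allows up to 0.0256% and 0.0240% of region b in astrocyte 1 and 2 and up to 0.118% and 0.0921% in neuron 1 and 2 (3 counts per library, counting error only). A count of 0 for region c over all libraries was found in 42.3% of the 7382 transcripts, most of which were counted less deeply, with a median of 2099 region b counts against 30020 for Slc1a3. Of the 75 other transcripts with at least as many region b counts as Slc1a3, a set chosen after the values were seen, 8 (10.7%) had no region c count, and the median of region c was 0.0771% of region b. That median is above the limits of both astrocyte libraries and below those of both neuron libraries. By these limits, neither neuron library excludes such a level by itself. A limit on the summed counts of both neuron libraries would be lower and was not calculated. Whether the neuron samples as a group exclude such a level was therefore not tested.

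Region d held 9 and 12 counts in astrocyte 1 and 2, against 4 and 1 in neuron 1 and 2. Set against region b, this came to 0.0769% for astrocyte 1, 0.0960% for astrocyte 2, 0.157% for neuron 1 and 0.0307% for neuron 2. The neuron libraries lay on either side of the astrocyte libraries, so the groups overlapped. With under 10 counts in all libraries but astrocyte 2, the region d to region b ratio was below the minimum for the test. The level over all libraries, 0.0866%, was near the median of the 7382 transcripts, 0.0944%.

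No other transcript shared the region b counts of Slc1a3 in all 4 libraries, and none came within 10% of them in every library, so no second entry with nearly the same counts was found. By pattern rather than level, 39 of 4831 transcripts averaging 50 CPM or more lay within a distance of 0.25 of Slc1a3. Distance here is the Euclidean distance of log2 CPM over the 4 libraries, each transcript centred on its own mean. The nearest was ENSMUST00000024706, at a distance of 0.0793, where the median of all was 2.71. It measured 1121 CPM in astrocyte 1, 1079 CPM in astrocyte 2, 232.6 CPM in neuron 1 and 162.6 CPM in neuron 2. It differed between cell types by -2.59 on the log2 scale (edgeR adjusted p = 0.000396, SE 0.218). Like Slc1a3 it was higher in neuron 1 than in neuron 2. These traits follow from its choice by the same 4 values and are no separate evidence. With 4 libraries in 2 groups, likeness rests mainly on the cell type difference and on the gap between the neuron libraries.

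**Figure D4:**
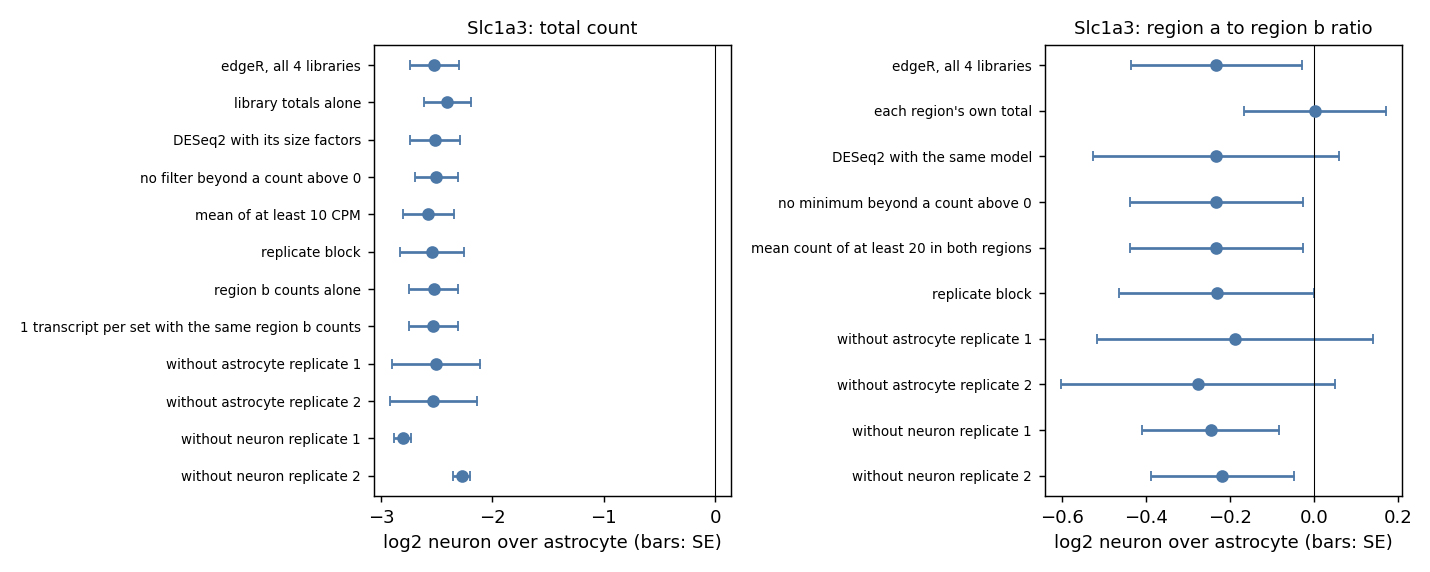
Points give the log2 change of Slc1a3, neuron over astrocyte, with SE bars, under each way of processing the counts. The total count (left) stays between -2.80 and -2.28, and the region a to region b ratio (right) lies between -0.28 and -0.19 except at 0.0029 with regions a and b each scaled to their totals.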

How the data were processed

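The authors deposited raw counts, a whole number of fragments for each transcript region. Regions without a count have no line and were read as 0. The tools named are bedtools, edgeR, STAR 2.3.1z8, FastQC 0.11.2, Bowtie2 2.2.2 and Trimmomatic 0.32, with no role or order stated, per the submitters' processing notes. Not given in the sources used here are genome build, annotation, strand and the handling of fragments with several matches, so fragments shared with a related or overlapping transcript could move the counts.

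Regions a to d were added up to 1 count per transcript. Transcripts passing filterByExpr (minimum count 10) were tested with the edgeR 4.0.16 quasi-likelihood test in R 4.3.3 with TMM factors, cell type as the only term and Benjamini-Hochberg adjustment over all transcripts (threshold 0.05). SE is the absolute log2 change over the root of F. Ratios of regions were tested in a quasi-likelihood model with terms for library, for region and for the interaction of region with cell type. This covered transcripts with at least 10 counts in both regions in at least 2 libraries. Both models were also run on simulated counts drawn with the same spread in both cell types. Those runs do not cover the unequal spread of the neuron and astrocyte libraries, and their outcome is not given here. DESeq2 1.42.0, other scalings, filters and left-out libraries served as alternatives. Pattern distances were taken on log2 CPM (prior count 2).

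The named transcripts are the listed members and, for each, the nearest pattern at a mean of at least 50 CPM. The members and lists were chosen with earlier results of these data known. The planned comparison between members needs at least 2 of them and was not run. No label says that replicate numbers pair the libraries.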

Additional observations from a re-analysis of the deposited data

How the results depend on the processing

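The total count of Slc1a3 kept its direction and passed the test under all 11 alternatives. Its log2 change was -2.40 with library totals alone and -2.57 with the filter set to a mean of 10 CPM or more, with the other 5 settings that kept all libraries between them, and -2.80 to -2.28 with 1 library left out. The adjusted p ranged from 1.57e-283 to 0.000826. The lowest values came from fits without a neuron library, where the spread came from the astrocyte pair. The region a to region b ratio passed in none of its 9 alternatives. Its log2 change was 0.0029 with regions scaled separately, nearly no difference, and lay between -0.28 and -0.19 with 1 library left out.

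The share of transcripts called higher in astrocyte samples was 11.3% with library totals alone and 7.08% (without astrocyte 2) to 24.6% (without neuron 1) with 1 library left out. For those higher in neuron samples it was 8.0%, and 0.867% to 21.7% without the same libraries. Ratios called higher in astrocyte samples, 93 in all, numbered 10 with regions scaled separately, 11 by DESeq2 and 2 to 200 with 1 library left out. The cause was not tested. With the replicate block, the log2 change of the total was -2.54 (edgeR adjusted p = 8.05e-07) and that of the ratio -0.23 (edgeR adjusted p = 0.779). Across 18819 transcripts, libraries of the same number deviated from their group means with r = -0.082. Ratios between members were not run, as only 1 listed ID had lines. Depth limits region d of Slc1a3, with at most 12 counts per library. Region c had 0 counts in every library, and its limits against region b were wider in the neuron than in the astrocyte libraries.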
